A study of Mus musculus with 9 samples.

Results

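The set consisted of 38 mouse genes of glycolysis and the response to low oxygen, chosen by symbol as glycolytic enzymes, carriers of glucose and lactate, and genes of the hypoxia-inducible factor (HIF) pathway. All 38 were found among the 48587 genes of the count table, and all 38 were among the 15695 genes that passed the filter on low counts. They comprised 2 glucose transporters, 15 glycolytic enzymes, 4 genes of lactate conversion and transport, 3 regulators of glycolytic flux, 4 genes of HIF and the hydroxylases that control it, and 10 HIF targets. Hindbrains of C57BL/6N mouse embryos on embryonic day 9.5 had been profiled by RNA sequencing to compare alleles of Zfp423, which encodes a zinc-finger transcription factor studied here for its part in hindbrain choroid plexus development. Each genotype had 3 libraries, and no group received a treatment.

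Littermates that make the full-length protein served as wild type (wt). The d9-20 allele carries a deletion of exon 4 and makes a protein without zinc fingers 9 to 20. In the d28-30 allele exons 6 and 7 are deleted, and zinc fingers 28 to 30 are missing from the protein. The labels do not say which mutant line the wt littermates came from, nor whether a library is 1 embryo or a pool. They name no Cre or tissue-specific driver for either deletion.

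Glycolysis splits glucose into pyruvate and yields ATP without oxygen, and lactate dehydrogenase turns the pyruvate into lactate, which leaves the cell through monocarboxylate carriers. Most of its enzymes have isozymes that are used in different tissues. When oxygen falls, the prolyl hydroxylases that mark the HIF alpha subunits for destruction stop working, and the stabilised factor binds short DNA sequences, the hypoxia response elements, and raises glycolytic, vascular and survival genes. The early embryo relies strongly on glycolysis and develops at low oxygen before its circulation is fully established.

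The core of a hypoxia response element reads ACGTG or GCGTG. These letters were searched on either strand in the RefSeq promoter windows (GRCm38.p6, 250 bases before to 50 after a transcription start), with CACGTG holding ACGTG on both strands. The table held 51 windows of 35 members, while Epas1, Ndrg1 and Slc2a3 were not matched. ACGTG was present in 56.9% of the members' windows and in 19.6% of all 32851 windows, and GCGTG in 54.9% and 32.4%. Among the 15 windows of the HIF pathway and target genes, 80% held ACGTG. A match describes letters only and does not show that a factor binds there.

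The promoters of 5 members are printed because the results below turn on these genes: Ldha, Slc16a3 and Ddit4 were low in a library that stood apart, Hif1a was high in it, and Eno2 was lower in every mutant library than in wt. Each sequence is the 250 bases before the start on the strand of the gene, 5′ to 3′. Capitals mark ACGTG and GCGTG on either strand, which read CACGT and CACGC where they lie on the other strand. The Ldha window is chr7:46845554-46845803 on the plus strand, the Slc16a3 window chr11:120948817-120949066 on the plus strand and the Ddit4 window chr10:59951771-59952020 on the minus strand. The Hif1a window is chr12:73907617-73907866 on the plus strand and the Eno2 window chr6:124769674-124769923 on the minus strand.
Ldha: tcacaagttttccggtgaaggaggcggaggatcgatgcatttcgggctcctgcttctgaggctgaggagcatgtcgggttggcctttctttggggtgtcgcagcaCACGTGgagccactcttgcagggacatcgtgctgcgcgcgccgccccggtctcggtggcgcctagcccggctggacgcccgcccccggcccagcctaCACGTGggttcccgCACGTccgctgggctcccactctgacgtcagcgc
Slc16a3: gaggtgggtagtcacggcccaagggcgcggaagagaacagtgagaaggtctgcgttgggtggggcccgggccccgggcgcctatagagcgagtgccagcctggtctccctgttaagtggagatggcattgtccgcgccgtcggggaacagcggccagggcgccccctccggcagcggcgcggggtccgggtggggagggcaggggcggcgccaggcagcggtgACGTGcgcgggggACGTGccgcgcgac
Ddit4: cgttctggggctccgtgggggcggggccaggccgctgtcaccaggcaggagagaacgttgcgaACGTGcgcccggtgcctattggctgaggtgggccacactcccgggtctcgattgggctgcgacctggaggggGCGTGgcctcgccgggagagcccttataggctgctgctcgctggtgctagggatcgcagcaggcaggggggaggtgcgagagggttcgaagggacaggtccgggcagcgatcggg
Hif1a: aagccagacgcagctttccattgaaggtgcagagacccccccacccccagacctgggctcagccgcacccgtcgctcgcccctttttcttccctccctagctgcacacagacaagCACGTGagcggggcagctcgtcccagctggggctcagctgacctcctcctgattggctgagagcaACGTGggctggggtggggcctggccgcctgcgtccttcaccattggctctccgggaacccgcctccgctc
Eno2: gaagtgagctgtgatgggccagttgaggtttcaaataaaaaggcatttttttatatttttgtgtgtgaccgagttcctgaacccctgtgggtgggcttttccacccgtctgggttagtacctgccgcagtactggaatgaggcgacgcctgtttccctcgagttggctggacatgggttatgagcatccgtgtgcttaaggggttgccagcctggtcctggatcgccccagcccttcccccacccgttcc
In these letters the printed Ldha window held CACGTG at 2 places and a further CACGT near the start. Another Ldha window, chr7:46846832-46847081, is not printed and held only 1 CACGC. The Hif1a window held CACGTG at 1 place and ACGTG at another. Slc16a3 had ACGTG at 2 places close to the start, Ddit4 had ACGTG and GCGTG once each, and neither motif was found in the Eno2 window.

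Total counts per library were 16903382 to 24216412, and 3 counts, taken as the detection floor, equal 0.124 to 0.177 CPM (counts scaled to a fixed library size). Zfp423 itself lay at 101, 105 and 118 CPM in wt, at 155, 156 and 194 in d9-20 and at 159, 172 and 183 in d28-30, and it rose in both mutants (log2 fold change 0.64 ± 0.10 SE, edgeR quasi-likelihood adjusted p = 0.036, and 0.67 ± 0.10, adjusted p = 0.0257). Gene-level counts cannot show the deleted exons and so do not check the allele. The 6 hindbrain markers, none at 0, had sums from 104 to 122 CPM over the wt libraries, from 104 to 129 over d9-20 and from 91.8 to 101 over d28-30, so that d28-30 lay below the others without overlap. None of the 6 passed the threshold in any comparison by edgeR, DESeq2 or limma-voom. By edgeR, 4 had an unadjusted p under 0.05 in d28-30 against wt, all lower, 4 between the mutants, all higher in d9-20, and 0 in d9-20 against wt. Of all genes tested, 8.08%, 9.58% and 5.96% had such a p in these comparisons. Forebrain markers summed to 5.24 to 14.6 CPM. The part of these markers in the d28-30 differences described below was not tested. The erythroid share of counts, from 11 markers, spanned 0.409% to 0.796% over the wt libraries, 0.365% to 0.418% over d9-20 and 0.424% to 0.650% over d28-30, and 9 of the 11 markers had an unadjusted p under 0.05 in d9-20 against wt, all lower. In such whole-tissue libraries fewer cells of a type and less RNA per cell cannot be told apart. Female tissue was present, by an Xist level of at least 580.5 CPM, in 1 of 3 wt libraries and in 2 of 3 of each mutant. Replicate 2 of each genotype was among these and also had Y-linked counts, at 0.00632% (wt), 0.0115% (d9-20) and 0.0120% (d28-30) of the total. Each replicate 2 library thus held material of both sexes. Replicate 2 of d28-30 stood apart from the rest. Its mitochondrial share of counts was 2.07%, against 0.904% to 1.42% in the others, and its chi-square per degree of freedom against each other library was 27.3 to 63.4, while no other pair exceeded 18.1.

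Levels between genes were compared as CPM per kb of exon. In wt the highest member was Pkm, the muscle pyruvate kinase gene, at 584 ± 27.7 CPM per kb (SD, n = 3). The lowest was Car9, a carbonic anhydrase of the cell surface, at 0.364 ± 0.0688. Ldha, the lactate dehydrogenase subunit that favours lactate formation, was next after Pkm at 551 ± 51.9, and these 2 levels did not differ beyond their spread. Gapdh at 288 ± 10.6, Aldoa at 252 ± 20.0, Tpi1 at 209 ± 13.3, Eno1 at 193 ± 17.4 and Pgk1 at 127 ± 11.9 followed. The glucose carrier Slc2a1 (GLUT1) was at 106 ± 11.5, and Gpi1, Pfkl and Pgam1 lay between 67.7 and 74.7. Other glycolytic enzymes were scarce, with Hk1 at 5.40 ± 0.797, Aldoc at 1.47 ± 0.162, Pfkp at 0.878 ± 0.077 and Eno2 at 0.717 ± 0.0227. Among the HIF targets Ddit4 at 26.1 ± 1.12, P4ha1 at 21.3 ± 0.818, Vegfa at 18.7 ± 0.143 and Bnip3 at 18.1 ± 3.55 were the highest, while Adm was at 0.586 ± 0.0544. Exon lengths are unions over all annotated exons, and long rare exons understate the level per kb of genes such as Pfkp, with 13.4 kb.

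**Figure D1:**
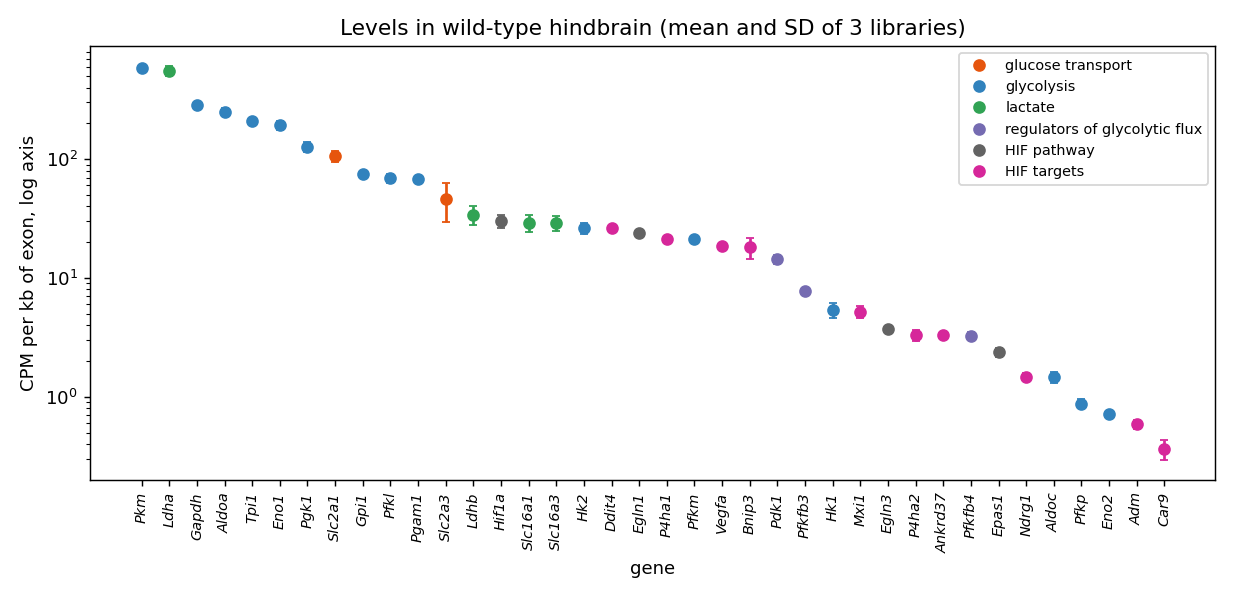
Levels of the 38 genes in wild-type hindbrain, as CPM per kb of exon on a log axis; points are means of 3 libraries, bars the SD, and colours the role. Pkm (584) and Ldha (551) lie at the top, and Adm (0.586) and Car9 (0.364) at the bottom.

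Shares of isozymes were taken among the members only, so that isozymes outside the set were not counted. On this count most steps with isozymes were carried by 1 gene. Eno1, the ubiquitous enolase, made up 99.6% to 99.8% of the summed level per kb of Eno1 and the neuronal enolase Eno2 over the 9 libraries. The enolase Eno3, outside the set, was at 48.3 CPM in wt, against 3.37 for Eno2 and 1039 for Eno1. Aldoa made up 99.3% to 99.6% of the aldolases, and Ldha 91.6% to 96.6% of the lactate dehydrogenase subunits. Of Hif1a and Epas1 (HIF-2 alpha) together, Hif1a held 89.9% to 95.3%, and of the prolyl hydroxylases Egln1 and Egln3 together, Egln1 held 86.0% to 89.7%. Outside these pairs, the alpha subunit Hif3a was at 15.7 CPM in wt, against 177 for Hif1a and 13.3 for Epas1. The prolyl hydroxylase Egln2 was at 80.7 CPM in wt, against 86.6 for Egln1 and 9.93 for Egln3. Hk2, the inducible hexokinase, held 80.4% to 86.7% against Hk1. The liver-type phosphofructokinase Pfkl held 71.9% to 78.8%, with Pfkm next and Pfkp at 0.857 to 0.878 CPM per kb on average in each genotype. The most even pair were the monocarboxylate carriers: Slc16a1 (MCT1) and the lactate exporter Slc16a3 (MCT4) were near parity, with Slc16a1 at 46.7% to 68.3%.

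With 3 libraries a genotype, none of the 38 members passed an adjusted p of 0.05 in any comparison by edgeR's quasi-likelihood test over all genes. The background was low too: 0.166% of all genes tested passed for d9-20 against wt (26 genes), 0.159% for d28-30 against wt (25 genes) and 0 percent for the 2 mutants. With the replicate number as a block, 55 genes passed in d9-20 against wt and 2 between the mutants, none of them a member. For any difference among the 3 genotypes 0.166% of genes passed and again no member. limma-voom passed no member either. DESeq2 passed Ndrg1 in each mutant against wt and for any difference among the genotypes. It also passed more genes in all, 122 in d9-20 against wt and 95 in d28-30 against wt. An unadjusted p under 0.05 was found for 2 members of d9-20 compared with wt (background 5.96%), for 3 of d28-30 compared with wt (8.08%) and for 10 between the mutants (9.58%). The wt comparisons share the wt libraries, and each mutant enters 2 comparisons, so that the comparisons are not independent.

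The intervals bound what could have been missed. The 95% interval of the difference lay within 1.5-fold in either direction for 30 members with d9-20 set against wt, for 29 with d28-30 set against wt and for 30 with the mutants set against each other. It lay within 2-fold for all 38 members in d9-20 against wt, and for 37 in each of the other comparisons, the exceptions being Eno2 in d28-30 against wt and Slc2a3 between the mutants.

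**Figure D2:**
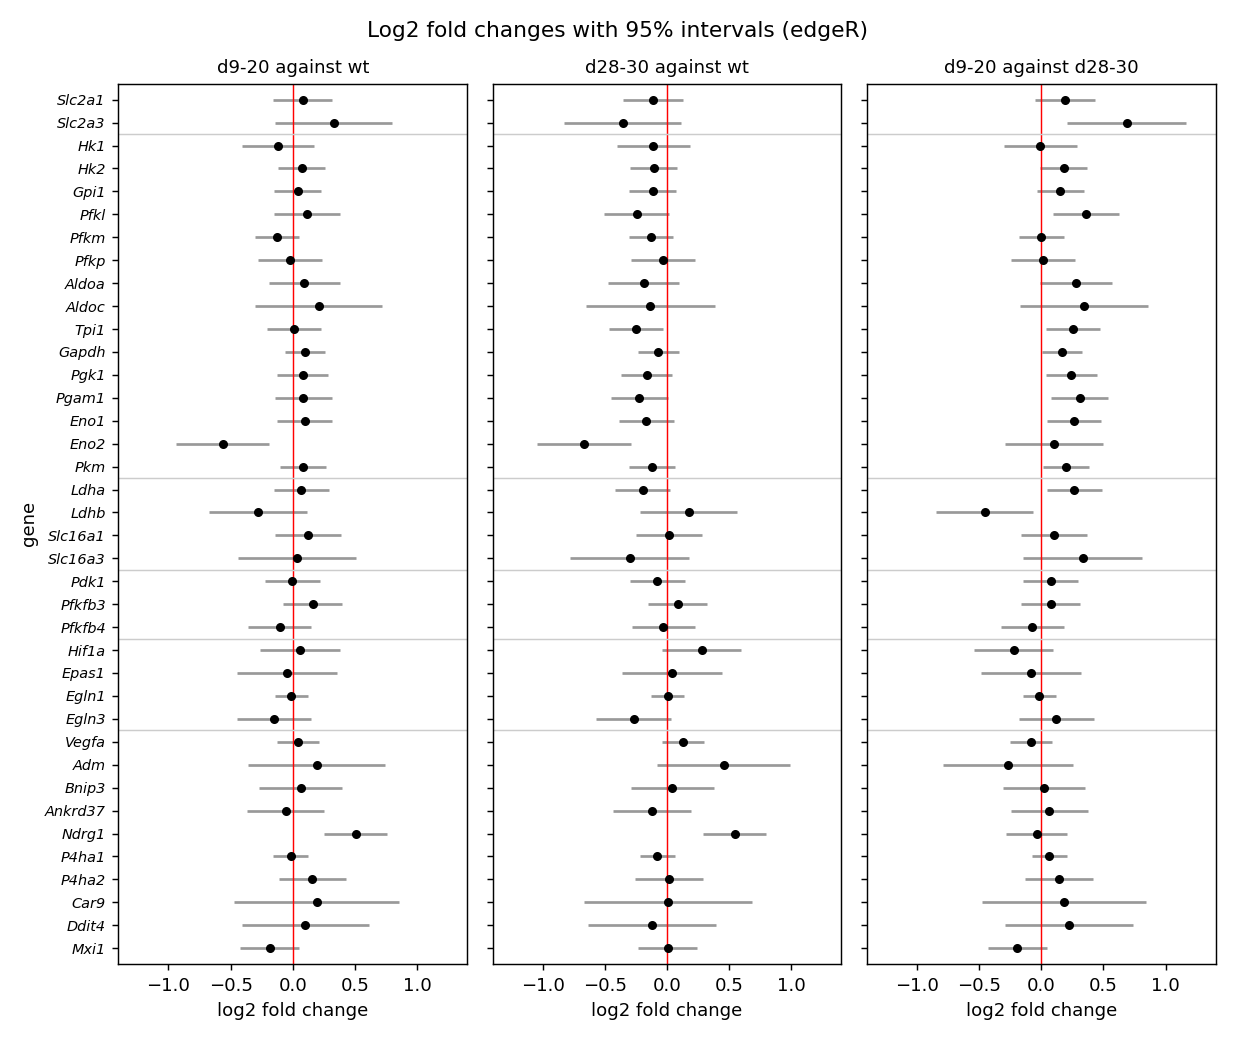
Log2 fold changes of the 38 genes (points) with 95% intervals (bars) in the 3 comparisons, from the edgeR fit of 9 libraries; grey lines part the roles and the red line marks 0. Ndrg1 lies above 0 and Eno2 below 0 in both mutants against wt, and 14 of the 15 glycolytic enzymes lie above 0 between the mutants.

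The group medians were small. Over the 38 members the median log2 fold change was 0.07 for d9-20 against wt, -0.11 for d28-30 against wt and 0.11 for d9-20 against d28-30, beside 0.00, 0.00 and -0.01 over all genes tested. The 15 glycolytic enzymes had medians of 0.08, -0.14 and 0.20, and the 10 HIF targets 0.08, 0.01 and 0.04. A list of 21 further HIF targets outside the set had medians of -0.04, -0.08 and 0.01. Of the enzymes, 11 were above 0 in d9-20, none in d28-30 and 14 between the mutants. For 2 members all d9-20 libraries lay above wt (Pfkfb3 and Ndrg1) and for 2 below (Pfkm and Eno2), where 5.99% of all genes were so separated above and 5.17% below. All d28-30 libraries lay above wt for Adm and Ndrg1 and below for Eno2 and Egln3, where 6.63% of all genes were above and 6.17% below. These shares of the members are close to the background.

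Ndrg1, a hypoxia-inducible gene of the NDRG family linked to differentiation and stress, had the smallest p of the members against wt in both mutants. It lay at 9.23, 9.34 and 10.6 CPM in wt, at 13.2, 12.5 and 15.7 in d9-20 and at 13.8, 13.8 and 14.8 in d28-30. All 6 mutant libraries were above all 3 wt libraries, and the mutants overlapped each other. Its log2 fold change was 0.50 ± 0.11 (SE) in d9-20 (edgeR adjusted p = 0.165) and 0.54 ± 0.11 in d28-30 (adjusted p = 0.156), that is 1.42-fold (95% interval 1.19 to 1.69) and 1.46-fold (1.22 to 1.73). With DESeq2 the adjusted p were 0.0275 and 0.0151, and 0.00816 for any difference. Over the 17 alternative settings the difference was 0.40 to 0.57 in d9-20, with adjusted p from 0.0275 to 0.677, and 0.50 to 0.60 in d28-30, with adjusted p from 0.0151 to 0.520. The gene lies on chromosome 15 (66929318 to 66969640, GRCm38), and an antisense transcript, Gm17035, overlaps 6.35% of its exons, so that reads of the pair cannot be told apart unless the counting used strand. The remaining 9 HIF targets had log2 differences of -0.19 to 0.19 in d9-20 against wt and of -0.12 to 0.46 in d28-30 against wt.

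Eno2, the enolase isozyme of neurons, was the glycolytic gene with the smallest p against wt. It was scarce, at 3.31, 3.32 and 3.50 CPM in wt, 1.92, 2.27 and 2.63 in d9-20 and 2.24, 1.85 and 2.30 in d28-30. Every mutant library was below every wt library, while Eno1, the main enolase, overlapped between each mutant and wt. The log2 fold change of Eno2 was -0.56 ± 0.17 in d9-20 (edgeR adjusted p = 0.438) and -0.67 ± 0.17 in d28-30 (adjusted p = 0.306), so that it did not pass the test. It was 0.677 times the wt level in d9-20 (95% interval 0.522 to 0.878) and 0.631 times in d28-30 (0.485 to 0.819). The 5 early neuron markers, all tested and none at 0, had sums from 291 to 493 CPM over the wt libraries, from 237 to 449.9 over d9-20 and from 404 to 524 over d28-30. These sums overlapped between d28-30 and wt, where the Eno2 difference was the larger one, and their part in it was not tested.

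**Figure D3:**
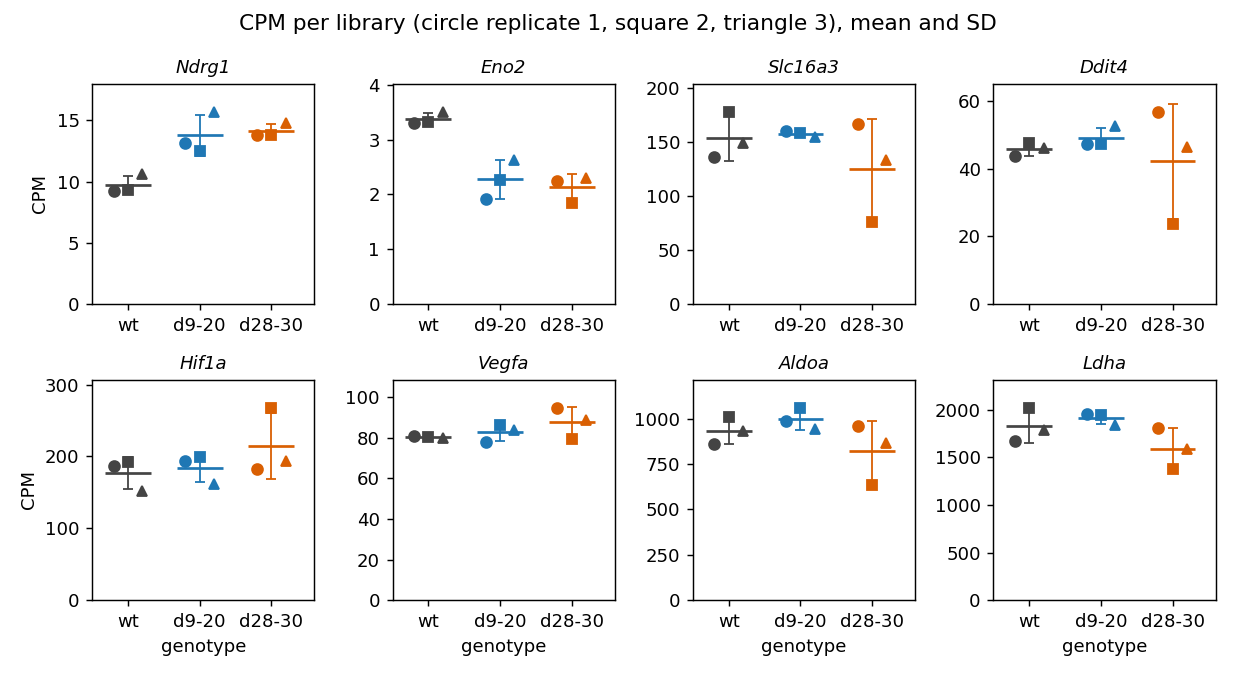
CPM of 8 genes in each library, with circles, squares and triangles for replicates 1, 2 and 3; horizontal lines are the means of 3 libraries and error bars the SD. Ndrg1 is higher and Eno2 lower in all 6 mutant libraries than in wt, and for Slc16a3, Ddit4 and Aldoa replicate 2 of d28-30 lies far below the other libraries.

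Glucose enters neural tissue through Slc2a1 and through Slc2a3 (GLUT3), the high-affinity carrier of neurons and of early embryonic cells. Slc2a1 ranged from 291 to 410.1 CPM. Slc2a3 was the most variable member, with a coefficient of variation of 30.3% over the 9 libraries, where the median member had 11.3% and the median gene in the members' range of CPM 11.1%. It lay at 269.7, 479 and 263 CPM in wt, at 422, 515 and 332 in d9-20 and at 276, 255 and 258 in d28-30. The d9-20 libraries were all above the d28-30 libraries, whereas wt spanned both because its replicate 2 was high.

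Slc2a3 had the smallest p of the members between the mutants, with a log2 difference of d9-20 over d28-30 of 0.68 ± 0.22 (edgeR adjusted p = 0.412), or 1.61-fold (95% interval 1.16 to 2.23). Without the filter on low counts its edgeR adjusted p was 0.00812, in a fit that passed 133 genes between the mutants. Over the other settings its adjusted p reached 0.732. Against wt its log2 fold change was 0.33 ± 0.21 in d9-20 (edgeR adjusted p = 1.00) and -0.36 ± 0.22 in d28-30 (adjusted p = 0.612). Both values kept their sign in all 17 alternative settings. In these the d9-20 value ran from 0.07 to 0.67, and its smallest did not come from leaving out a library. Both values also moved when 1 library was left out. Without wt replicate 2 they were 0.67 and -0.02, so that the d28-30 value depended on that library. Without wt replicate 1 they were 0.18 and -0.50, and without wt replicate 3 they were 0.18 and -0.51. Without d9-20 replicate 2 the first was 0.16. Ldhb, the lactate dehydrogenase subunit of oxidative tissue, was low in the libraries with the highest Slc2a3. It lay at 57.8, 42.4 and 60.4 CPM in wt, at 43.4, 32.6 and 56.0 in d9-20 and at 57.3, 59.7 and 64.2 in d28-30. All d9-20 libraries were below all d28-30 libraries (log2 difference -0.46 ± 0.18, edgeR adjusted p = 0.494), and against wt the genotypes overlapped.

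The 3 libraries with the lowest Ldhb, namely wt replicate 2 and d9-20 replicates 1 and 2, were also the 3 highest in Slc2a3. The same 3 libraries had the lowest sums of the early neuron markers, at 291, 289 and 237 CPM against 404 to 524 in the others. They also had the highest sums of the 4 surface ectoderm markers, none of which was at 0, at 207, 169 and 181 CPM against 126 to 143. Their sums of the scarce macrophage markers were the lowest too, at 5.22, 4.10 and 2.62 CPM against 5.92 to 9.37. The sums of the other cell type lists did not set these 3 libraries apart. By genotype the surface ectoderm sum spanned 140.2 to 207 CPM (wt), 141 to 181 CPM (d9-20) and 126 to 133 CPM (d28-30). Libraries of both wt and d9-20 were thus among these 3. Between libraries of the same number, d9-20 was above wt in Slc2a3 and below it in Ldhb and in the early neuron sum in 3 of 3 pairs, and with the replicate block the log2 fold change against wt was 0.35 for Slc2a3 and -0.29 for Ldhb. The part of tissue makeup in these differences and in the difference between the mutants was not tested.

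**Figure D4:**
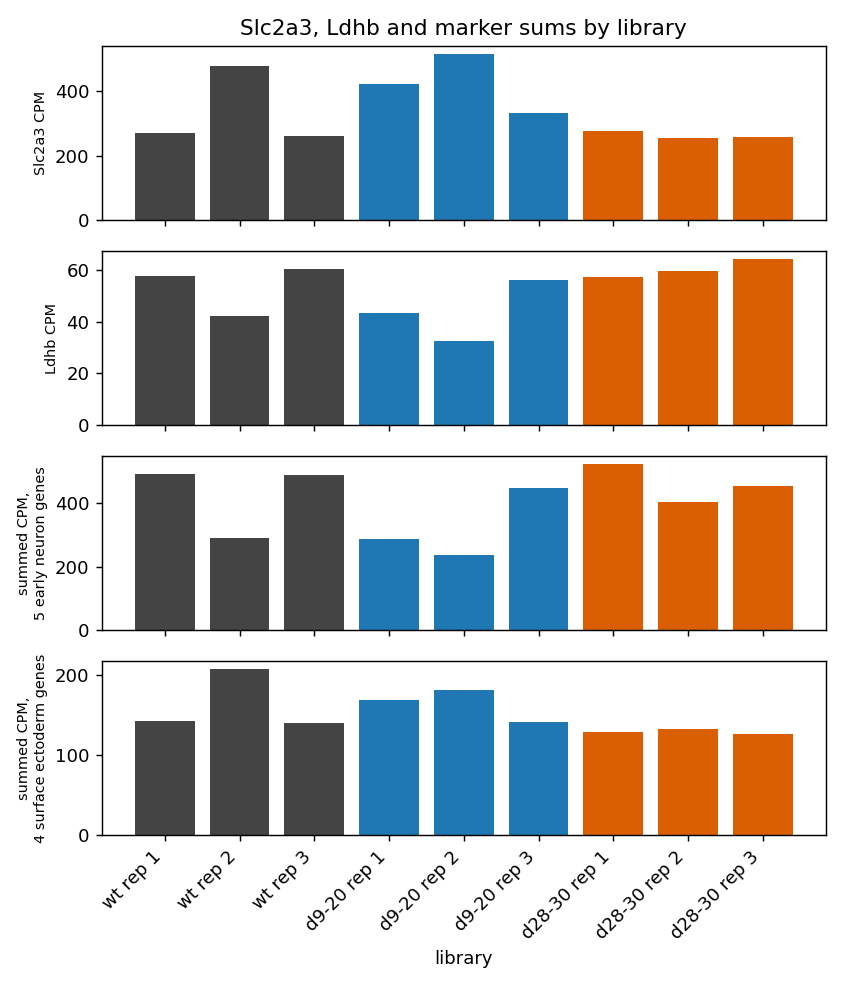
CPM of Slc2a3 and Ldhb and the summed CPM of 5 early neuron and 4 surface ectoderm markers in each of the 9 libraries (bars; grey wt, blue d9-20, orange d28-30). In wt replicate 2 and d9-20 replicates 1 and 2, Slc2a3 (422 to 515) and the surface ectoderm sum are highest and Ldhb (32.6 to 43.4) and the early neuron sum lowest.

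The trunk of glycolysis showed its widest departures in a single library. In replicate 2 of d28-30 the level of 14 of the 15 enzymes was the lowest of all 9 libraries, the exception being Pfkp, where 29.2% of all genes had their lowest value in this library. Both glucose carriers, Ldha and Slc16a3 were lowest there as well. In all, 21 of the 38 members were lowest in this library, and the members together took 0.940% of its counts against 1.12% to 1.30% in the others. The median deviation from a gene's mean over the 9 libraries was -0.30 on the log2 scale for the enzymes and -0.20 for the members, beside 0.01 for all genes. Of 7 genes of the pentose phosphate pathway, which branches from glycolysis, 5 were lowest in the same library.

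Aldoa, the main aldolase, lay at 861, 1009 and 929.6 CPM in wt, at 987, 1056 and 943 in d9-20 and at 961, 632 and 865 in d28-30. Only replicate 2 of d28-30 was out of the range of the others. Pfkl, the phosphofructokinase at the committed step, was at 414, 499 and 469 CPM in wt, at 519, 488 and 486 in d9-20 and at 442, 309.9 and 415 in d28-30. Its value in that replicate was 64.9% of the median of the other 8 libraries. For the other enzymes below range this percentage ran from 66.4% (Aldoa) to 88.3% (Gapdh).

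Slc16a3, which exports lactate from glycolytic cells, was at 136, 177 and 149 CPM in wt, at 160.0, 158 and 154 in d9-20 and at 167, 75.4 and 133 in d28-30. Replicate 2 of d28-30 stood at 48.3% of the median of the other libraries, while Slc16a1, which carries lactate and pyruvate either way, was within range there at 135 CPM. Ldha was at 1675, 2011.5 and 1781 CPM in wt, at 1958, 1938 and 1842 in d9-20 and at 1810.3, 1379.5 and 1583 in d28-30.

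Ddit4, a HIF target that restrains the growth kinase mTORC1, followed Slc16a3 in this library. It lay at 43.7, 47.6 and 46.1 CPM in wt, at 47.4, 47.2 and 52.6 in d9-20 and at 56.6, 23.5 and 46.5 in d28-30, so that replicate 2 was at 49.8% of the median of the other libraries. Of the other HIF targets, Ankrd37 and P4ha2 were also lowest there, and the remaining 7 were within range, among them Vegfa, Bnip3 and P4ha1. Hif1a went the other way. It was at 187, 193 and 152 CPM in wt, at 193, 199 and 161 in d9-20 and at 183, 267 and 194 in d28-30, and the value of 267 was 141% of the median of the other libraries and the highest of all 9. Hif1a was the only member to be highest in that library, where 30.6% of all genes were highest. The mitochondrial share of this library was also the highest, and its part in these values was not tested.

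**Figure D5:**
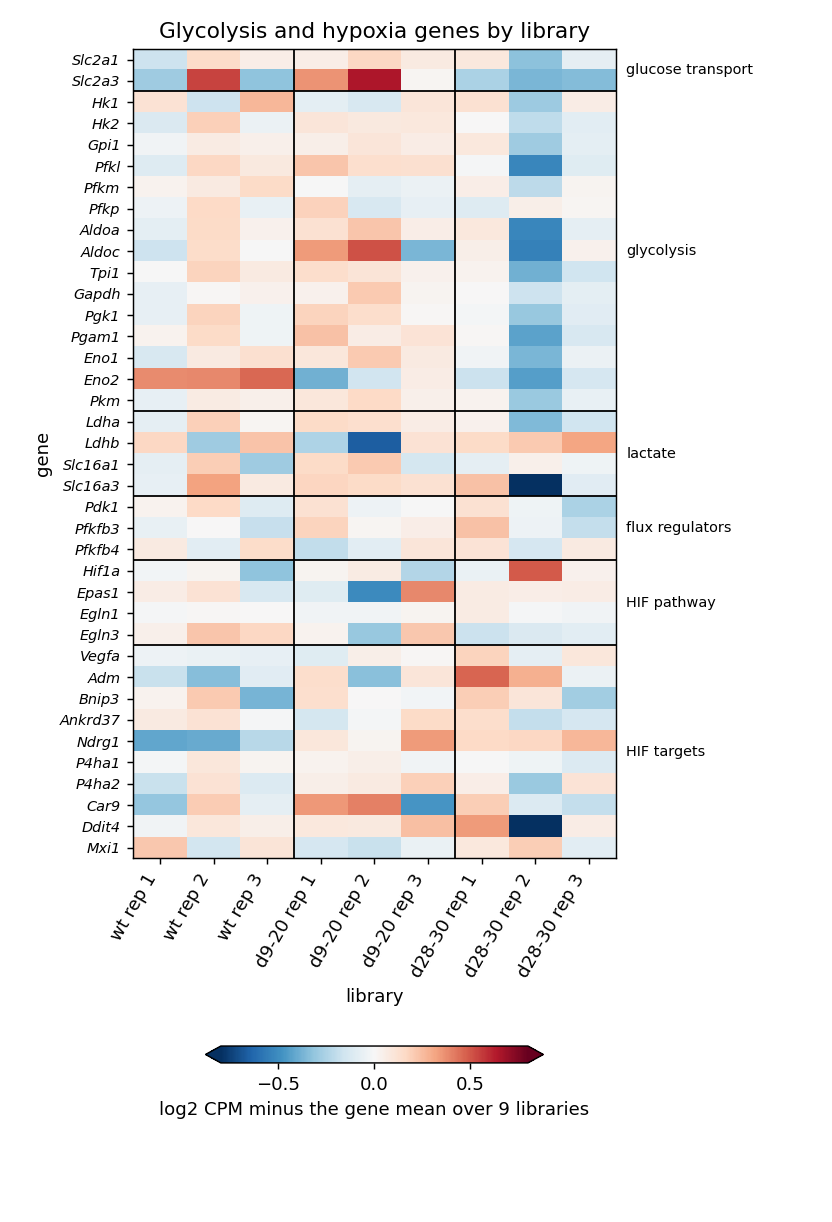
Log2 CPM of each gene minus its mean over the 9 libraries (colour; values beyond 0.8 in size are drawn in the end colours), with genes grouped by role and libraries by genotype. The blue column is replicate 2 of d28-30, in which 14 of the 15 glycolytic enzymes were lowest and Hif1a was highest.

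The d28-30 values of the glycolytic enzymes depended on this library. With it, 15 of 15 glycolytic enzymes were below wt in d28-30, with a median log2 fold change of -0.14. Without it, 13 of 15 were, with a median of -0.05. Tpi1, the triose phosphate isomerase, went from -0.25 ± 0.10 (edgeR adjusted p = 0.595) to -0.15, Pgam1 (phosphoglycerate mutase) from -0.22 ± 0.10 (adjusted p = 0.61) to -0.11 and Pfkl from -0.24 ± 0.12 (adjusted p = 0.61) to -0.10. Slc16a3 went from -0.30 to -0.04, and Ddit4 turned from -0.12 to 0.17. Without the library, Ndrg1 was at 0.56 in d28-30 (adjusted p = 0.16) and Eno2 at -0.57 (adjusted p = 0.502), so that these 2 differences did not rest on it. Members with an unadjusted p under 0.05 were then 3 in d28-30 against wt, beside 6.21% of all genes: Ndrg1, Eno2 and Vegfa, the vascular growth factor, at 0.19 (edgeR adjusted p = 0.493).

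In d9-20 against wt the 5 members with the smallest p were Ndrg1, Eno2, Mxi1, Ldhb and Pfkm. Mxi1, a MYC antagonist induced by HIF, had a log2 fold change of -0.19 ± 0.11 and the muscle-type phosphofructokinase Pfkm one of -0.13 ± 0.08. Ldhb was at -0.28 ± 0.18, and the edgeR adjusted p of these 3 genes was 1.00. Pfkm lay at 68.0, 70.0 and 74.2 CPM in wt and at 66.4, 63.5 and 64.6 in d9-20, without overlap. Pfkfb3, which makes the activator of phosphofructokinase, was at 59.6, 62.3 and 54.6 CPM in wt and at 70.3, 62.7 and 64.3 in d9-20, also without overlap, with a log2 fold change of 0.16 ± 0.11 (edgeR adjusted p = 1.00).

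Between the mutants, the d9-20 libraries lay above the d28-30 libraries for 10 members and below for 1, where 8.64% of all genes were above and 8.19% below. The 10 were Slc2a3, Hk2, Pfkl, Tpi1, Gapdh, Pgk1, Pgam1, Eno1, Pkm and Ldha, and the 1 below was Ldhb. Pgam1 had a log2 difference of 0.31 ± 0.10 (edgeR adjusted p = 0.459), Pfkl one of 0.36 ± 0.12 (adjusted p = 0.459), Ldha one of 0.27 ± 0.10 (adjusted p = 0.481) and Eno1 one of 0.26 ± 0.10 (adjusted p = 0.483). These enzymes were all lowest in replicate 2 of d28-30. Without that library Pgam1 was at 0.19, Pfkl at 0.21, Ldha at 0.17 and Eno1 at 0.16, and the median of the 15 enzymes was 0.12 in place of 0.20. Members with an unadjusted p under 0.05 were then 5 in place of 10, beside 6.97% of all genes: Slc2a3, Pfkl and Pgam1 higher in d9-20, and Ldhb and Vegfa lower.

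Egln1, the main oxygen sensor of HIF, had the lowest coefficient of variation of the 38 members, 2.09%, with 84.8 to 90.4 CPM over the 9 libraries. P4ha1, the collagen prolyl hydroxylase, had 3.89% and Vegfa 6.51%. Epas1, the HIF alpha subunit of endothelial cells among others, ranged from 9.23 to 17.2 CPM, both ends being d9-20 libraries. Egln3, the hydroxylase that HIF itself raises, was at 9.23, 10.5 and 10.1 CPM in wt, 9.16, 7.27 and 10.4 in d9-20 and 7.95, 8.29 and 8.45 in d28-30. All d28-30 libraries were below wt (log2 fold change -0.27 ± 0.14, edgeR adjusted p = 0.61). Adm, which encodes the vasodilator adrenomedullin, was near 1 CPM in all libraries, at 0.964, 0.854 and 1.03 in wt, 1.22, 0.858 and 1.18 in d9-20 and 1.53, 1.35 and 1.06 in d28-30. The d28-30 libraries were above wt (0.46 ± 0.24, edgeR adjusted p = 0.61). Car9, among the most HIF-dependent transcripts known, was at 0.611 to 1.16 CPM, and its 95% intervals extended past 1.5-fold.

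Other lists held 9 HIF regulators, 21 further HIF targets, 14 genes of oxidative phosphorylation and 7 of the pentose phosphate pathway. Another held 23 further genes of glycolysis and pyruvate use, of which 16 passed the filter. No gene of these lists passed the threshold in any comparison by edgeR or by limma-voom. DESeq2 passed Lox between the mutants (adjusted p = 0.0148), where it passed 79 genes in all. In the order d9-20 against wt, d28-30 against wt and d9-20 against d28-30, an unadjusted p under 0.05 was found for 1, 2 and 3 of the further HIF targets, 0, 1 and 2 of the further glycolysis and pyruvate genes, 1, 1 and 0 of the oxidative phosphorylation genes and 0, 2 and 1 of the pentose phosphate genes. Over all genes tested the shares were 5.96%, 8.08% and 9.58% in the same order. Of the HIF regulators, 1 had an unadjusted p under 0.05 in d9-20 against wt, and none in the other comparisons. This was Hif3a, an alpha subunit that can oppose the others, at 12.8 ± 1.61 CPM (SD, n = 3) in d9-20 and 15.7 ± 1.27 in wt (log2 fold change -0.30 ± 0.11, edgeR adjusted p = 0.66).

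Lox, a HIF target that cross-links collagen, had the smallest p of these lists between the mutants. It was at 3.64 ± 0.158 CPM in wt, 2.63 ± 0.131 in d9-20 and 4.90 ± 0.934 in d28-30 (SD, n = 3 each), and the 3 genotypes did not overlap. Its log2 difference was -0.47 ± 0.17 in d9-20 against wt (edgeR adjusted p = 0.622), 0.43 ± 0.16 in d28-30 against wt (adjusted p = 0.574) and -0.90 ± 0.16 between the mutants (adjusted p = 0.216). Higd1a, a mitochondrial protein induced by hypoxia, was at -0.23 ± 0.08 in d28-30 against wt (edgeR adjusted p = 0.551), and Tfrc, the transferrin receptor, at -0.38 ± 0.12 between the mutants (adjusted p = 0.421).

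Of the further glycolysis and pyruvate genes, the monocarboxylate carrier Slc16a7 (MCT2) was at 1.87 ± 0.224 CPM in d9-20 and 3.34 ± 0.713 in d28-30 (log2 difference -0.84 ± 0.24, edgeR adjusted p = 0.392). The mitochondrial pyruvate carrier subunit Mpc1 was at 0.42 ± 0.19 in d28-30 against wt (edgeR adjusted p = 0.61). The oxidative phosphorylation list had medians of -0.05, -0.07 and -0.01 in the 3 comparisons, and its regulator Ppargc1a was at -0.50 ± 0.19 in d9-20 against wt (edgeR adjusted p = 0.695). Rpia, an isomerase of the pentose phosphate pathway, was at -0.19 ± 0.09 in d9-20 and -0.22 ± 0.09 in d28-30 against wt, with adjusted p of 0.849 and 0.595 by edgeR.

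Processed copies of glycolytic genes are common in the mouse genome and can take reads. The 11 rows of the table named as copies of members held 357 counts in all, 0.0164% of the members' counts. No single row had more than 23 counts in a library. Copies listed under symbols that do not name a member were not searched for. Reads lost because they matched several places cannot be seen in these counts. Overlap with other transcripts was largest for Ankrd37, with Lrp2bp over 22.7% of its exons, for Bnip3, with the antisense Gm45507 over 22.3%, and for Pkm, with Gm49759 on the same strand over 15.3%.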

How the data were processed

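Total RNA from hindbrains on embryonic day 9.5 was extracted with spin columns, and 500 ng per sample were made into stranded TruSeq libraries and sequenced on a NextSeq 500 (single reads of 75 nt), per the labels' protocols. The authors deposited raw counts, in 1 table with a row for each gene symbol and a column for each of the 9 libraries. Per the submitters' processing notes the tools were STAR 2.5.3a, featureCounts and limma, with the mm10 (GRCm38) build. Not given in the sources used here are the annotation release, the strand setting and how multi-mapping reads were treated.

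Counts were fitted in R 4.3.3 with edgeR 4.0.16: filterByExpr, TMM scaling, 1 quasi-likelihood fit of all 9 libraries with genotype as the only factor, and Benjamini-Hochberg adjustment over the 15695 genes left, with a threshold of 0.05. The common coefficient of variation between libraries was 0.110. Standard errors are the log2 fold change divided by the square root of F. The code was tested on simulated data. CPM are after TMM scaling, with SD over 3 libraries. Exon lengths came from GENCODE M21 (GRCm38), in which Aldoa names 2 genes, whose exons were merged. Promoters came from the RefSeq table. No label states separate embryos or litters for the libraries of a genotype. Xist and Y-linked levels differed within each genotype, so that its 3 libraries were not all repeats of 1 embryo, but which of them are independent is not known, and the p-values reflect the spread among these libraries.

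The members and lists were chosen with earlier results of these data known. All 38 members are accounted for; full statistics are given for the 5 with the smallest p in each comparison, for members past the threshold, and for the 2 genes with the smallest p of another list. Genes described in replicate 2 of d28-30, or as separated without overlap, were chosen after their values were seen. Not every gene of the lists that meets this rule is given. The marker lists set beside Slc2a3 and Ldhb were also chosen after their values were seen.

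The titles number the libraries none, 1 and 2 (none is replicate 3 here). Deviations from the genotype means correlated, for libraries with the same number, at 0.141, 0.261 and 0.500 for d9-20 with wt. They correlated at 0.110, 0.154 and 0.213 between the mutants and at -0.202, 0.189 and 0.214 between d28-30 and wt. Replicate 1 of d9-20 correlated more with replicate 2 than with replicate 1 of wt (0.197) and of d28-30 (0.122). The labels state no pairing and these values do not settle one, so that the replicate block served only as an alternative. All reported values come from the fit without a block, and blocked values are given where named. The alternatives were RLE scaling, no filter, DESeq2 1.42.0, limma-voom (limma 3.58.1), a replicate block, only the compared genotypes, erythroid or Y-linked share as a covariate, and leaving out each library.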

Additional observations from a re-analysis of the deposited data

How the results depend on the processing

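Across 17 alternative settings, 114 member differences (38 genes in 3 comparisons) were recomputed, and 3 of the 1938 values passed the threshold. Of the 114 differences, 72 kept their sign throughout and 42 changed it somewhere. The main fit called no member, so that there was no call to reverse. The count of members called was 0 in every comparison under most settings. With DESeq2 it was 1 for either mutant against wt and for any difference (Ndrg1 each time), and 1 without the filter on low counts between the mutants and for any difference (Slc2a3, adjusted p = 0.00812 and 0.0133). Leaving out each library in turn gave 0 to 0 members in each comparison.

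The count over all genes moved more. In d9-20 against wt it was 26, and 148 without the filter, 122 with DESeq2, 55 with the replicate block, 40 with only the 2 genotypes, 7 with the erythroid covariate, 16 with the Y-linked covariate and 6 to 93 with a library left out, highest without replicate 2 of d28-30. In d28-30 against wt it was 25, and 98 without the filter, 95 with DESeq2, 48 with the replicate block, 12 with only the 2 genotypes and 10 to 33 with a library left out. Between the mutants it was 0, and 133 without the filter, 79 with DESeq2, 2 with the replicate block and 0 to 4 with a library left out. The replicate block changed no member's call. Why these counts moved was not tested.

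With 3 libraries a genotype there is a limit to what can be seen, and intervals of scarce genes such as Car9 and Adm extended past 1.5-fold. Other annotation or strand settings were not tried, because the table holds counts only.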
